A study of Mus musculus with 16 samples.

Results

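The chemokine genes that neutrophils transcribe on activation were followed here as 10 genes, namely Cxcl1, Cxcl2, Cxcl3, Cxcl10 and Cxcl16 of the CXC family and Ccl2, Ccl3, Ccl4, Ccl6 and Ccl9 of the CC family. They were listed by symbol, and all 10 were among the 23337 gene symbols of the count table. A filter on low counts kept 9 of them, and Cxcl16 did not pass. Cxcl2, Cxcl3 and Cxcl10 were 15.5-fold to 144.5-fold higher in libraries labelled stimulated than in unstimulated ones, in both genotypes, and none of the 10 passed a test between the genotypes.

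Chemokines are small secreted proteins that steer leukocytes along a gradient through receptors that couple to G proteins. A neutrophil both answers to them and makes them. CXCL1, CXCL2 and CXCL3 bind CXCR2 and draw in more neutrophils, CXCL10 draws in activated T cells and natural killer cells through CXCR3, and the CC chemokines mainly call monocytes, macrophages and lymphocytes. Transcription of many of these genes is switched on by NF-κB downstream of TNF, IL-1 and microbial products, and their short-lived messages are removed by RNA-binding proteins such as tristetraprolin.

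Blood neutrophils came from 8 week old mice on a C57BL/6J background. LTβRΔN mice carried Ltbr fl/fl and the Mrp8-Cre transgene, in which the S100A8 promoter drives Cre and EGFP in the neutrophil lineage, and control littermates carried Ltbr fl/fl without Cre, so the transgene itself was present in 1 genotype only. Cells were isolated by magnetic negative selection, and RNA was sequenced in bulk after cDNA amplification. The series holds 3 unstimulated (libraries 71, 72 and 73) and 4 stimulated control libraries (80 to 83), and 4 unstimulated (67 to 70) and 5 stimulated LTβRΔN libraries (75 to 79). By the treatment protocol, cells were kept for 2 h in TNF (100 ng/ml), GM-CSF (100 ng/ml) and IL-6 (50 ng/ml), and some also received soluble LIGHT, a ligand of LTβR, at 500 ng/ml. The design text of the series names the cytokines as the treatment instead, and the labels do not give the LIGHT status of any library. Groups are therefore called stimulated and unstimulated as labelled. A second number in the column names of the counts is shared by 7 pairs of libraries across treatment labels. What it marks is not given, so it was not used as pairing in the main fit. Nothing in the labels ties a library to a single animal, so p-values measure the spread between these libraries.

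Total counts per library ranged from 1094335 to 11932653, with the lowest group median, 2408608, in stimulated LTβRΔN neutrophils. The factor that scales each library (TMM) was 1.03 to 1.14 in unstimulated and 0.916 to 0.951 in stimulated libraries. Ltbr itself, the check of the genotype label, was at 84.6 to 154 CPM (read counts per 1000000 of the TMM-scaled library total) in control and at 0.705 to 18.1 CPM in LTβRΔN libraries. Its log2 fold change was -3.80 without (SE 0.453, edgeR adjusted p = 0.000109) and -3.72 with stimulation (SE 0.417, edgeR adjusted p = 3.83e-05). The neutrophil genes S100a8 and S100a9 were at 11180 CPM or more in every library. Of the 7 monocyte markers in the table, Mrc1 was at 0 in every library and Ccr2 and Cx3cr1 did not exceed 1.39 CPM. Csf1r was at 224 to 439, Cd68 at 174 to 301 and Ly6c2 at 92.1 to 158 CPM, and the summed level of the list was 608 to 862 CPM in unstimulated and 538 to 649 CPM in stimulated libraries. The 5 platelet genes summed to 194 CPM in library 82 and to at most 23.2 CPM in any unstimulated library, and that library also held the highest Camp, Ltf and Ngp, which mark immature neutrophils. The index read was S520 in libraries 67 to 72 and S521 in the rest, so in LTβRΔN neutrophils index and treatment label cannot be told apart, and in control neutrophils only library 73 breaks the link.

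The genes lie on 2 chromosomes. On chromosome 5 of GRCm38, Cxcl3 (90786103 to 90789600), Cxcl1 (90891241 to 90893115) and Cxcl2 (90903871 to 90905938) follow each other on the plus strand, with 10755 bases between Cxcl1 and Cxcl2, and Cxcl10 (92346638 to 92348889) lies on the minus strand. On chromosome 11, Cxcl16 (70453983 to 70459984) and Ccl2 (82035571 to 82037453) stand apart from Ccl9 (83572919 to 83578636), Ccl6 (83587882 to 83593087), Ccl3 (83647844 to 83649355) and Ccl4 (83662584 to 83664683). Ccl9 and Ccl6 are 9245 bases apart and Ccl3 and Ccl4 13228. On the opposite strand, Cxcl10 overlaps Art3, Cxcl16 overlaps Zmynd15, Ccl2 overlaps Gm17268 and Ccl6 overlaps E230016K23Rik. Art3 had 17 counts over all libraries beside 7929 for Cxcl10, and E230016K23Rik had 777 beside 646132 for Ccl6, with a strand setting that is not given in the sources used here.

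Promoter sequence of 7 of the genes was at hand from RefSeq (GRCm38.p6). The 200 bases before the start are shown for the 4 genes that were higher in stimulated libraries of at least 1 genotype and for Ccl6, the most abundant of the 10. The start is the most upstream one annotated by RefSeq or GENCODE. It lay 28 bases upstream of the RefSeq start in Cxcl2 and 4 in Cxcl1. Capitals mark the NF-κB consensus, the AP-1 letters TGANTCA and the TATA box letters TATAAA, each searched on both strands, and overlapping matches run together. Sequences run 5′ to 3′ on the strand of the gene, at chr5:90891041-90891240 (plus), chr5:90903671-90903870 (plus), chr5:90785901-90786100 (plus), chr5:92348890-92349089 (minus) and chr11:83593088-83593287 (minus).
Cxcl1: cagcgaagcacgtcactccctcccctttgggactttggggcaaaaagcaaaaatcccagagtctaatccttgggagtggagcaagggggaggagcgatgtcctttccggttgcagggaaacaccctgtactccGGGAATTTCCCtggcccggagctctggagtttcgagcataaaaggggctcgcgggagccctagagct
Cxcl2: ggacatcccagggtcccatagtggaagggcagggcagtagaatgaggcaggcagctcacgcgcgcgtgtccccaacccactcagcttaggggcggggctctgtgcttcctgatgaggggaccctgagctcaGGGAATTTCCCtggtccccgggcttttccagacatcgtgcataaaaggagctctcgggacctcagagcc
Cxcl3: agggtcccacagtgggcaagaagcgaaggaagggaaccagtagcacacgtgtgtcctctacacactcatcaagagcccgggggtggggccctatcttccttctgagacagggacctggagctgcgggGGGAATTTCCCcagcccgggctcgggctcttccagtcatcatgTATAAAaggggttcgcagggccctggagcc
Cxcl10: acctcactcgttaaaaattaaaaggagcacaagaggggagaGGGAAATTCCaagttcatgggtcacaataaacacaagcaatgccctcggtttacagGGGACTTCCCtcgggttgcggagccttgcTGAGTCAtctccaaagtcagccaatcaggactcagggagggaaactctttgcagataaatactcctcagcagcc
Ccl6: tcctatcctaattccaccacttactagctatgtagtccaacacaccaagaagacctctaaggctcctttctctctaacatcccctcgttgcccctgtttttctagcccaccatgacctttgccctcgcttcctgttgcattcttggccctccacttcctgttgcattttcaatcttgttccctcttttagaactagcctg

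The 3 CXCR2 ligands shared the NF-κB match GGGAATTTCC on the strand of the gene, overlapped by a match on the opposite strand that lies 1 base further on, GGAATTTCCC as read on the strand of the gene. Counted back from -1 at the base before the start, the former lay at -67 to -58 in Cxcl1, at -69 to -60 in Cxcl2 and at -73 to -64 in Cxcl3. Cxcl10 held 2 different matches, GGGAAATTCC at -159 to -150 and GGGACTTCCC at -103 to -94, and the AP-1 letters TGAGTCA at -74 to -68. Ccl9 held an NF-κB match on the opposite strand at -35 to -26, and Ccl3 and Ccl6 held none. The consensus occurred in 3.18% of 32851 promoter windows of this length, TGANTCA in 5.48% and TATAAA, found in Cxcl3 and Ccl9, in 9.96%. Those windows end at the RefSeq start. The STAT letters TTCNNNGAA (5.49% of windows) and a fixed letter pattern for the interferon-stimulated response element (2.27%) were in none of the 7. Only the 200 bases before each start were searched, and sequence further upstream and other forms of these elements were not tested. A match is a likeness of letters, not a shown binding site.

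Among unstimulated neutrophils 1 chemokine outweighed the rest. Per kilobase of coding transcript, Ccl6 stood first in every group, at 4285 ± 793 (SD, n = 3) CPM per kb in unstimulated control and 4871 ± 832 (SD, n = 4) in unstimulated LTβRΔN neutrophils. Ccl4, Ccl3 and Cxcl2 followed, between 127 and 393 CPM per kb on average, with ranges that overlapped each other in both genotypes. The remaining 6 genes were below 8 CPM per kb on average, and each overlapped its next neighbour in that order in both genotypes. In stimulated neutrophils Cxcl2 was second, at 2555 ± 118 (SD, n = 4) CPM per kb in control and 2682 ± 149 (SD, n = 5) in LTβRΔN libraries, below Ccl6 and above Ccl3 and Ccl4 without overlap. Cxcl3 and then Cxcl10 followed Ccl3 and Ccl4 in both genotypes, ahead of Ccl9, Cxcl1, Ccl2 and Cxcl16.

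**Figure D1:**
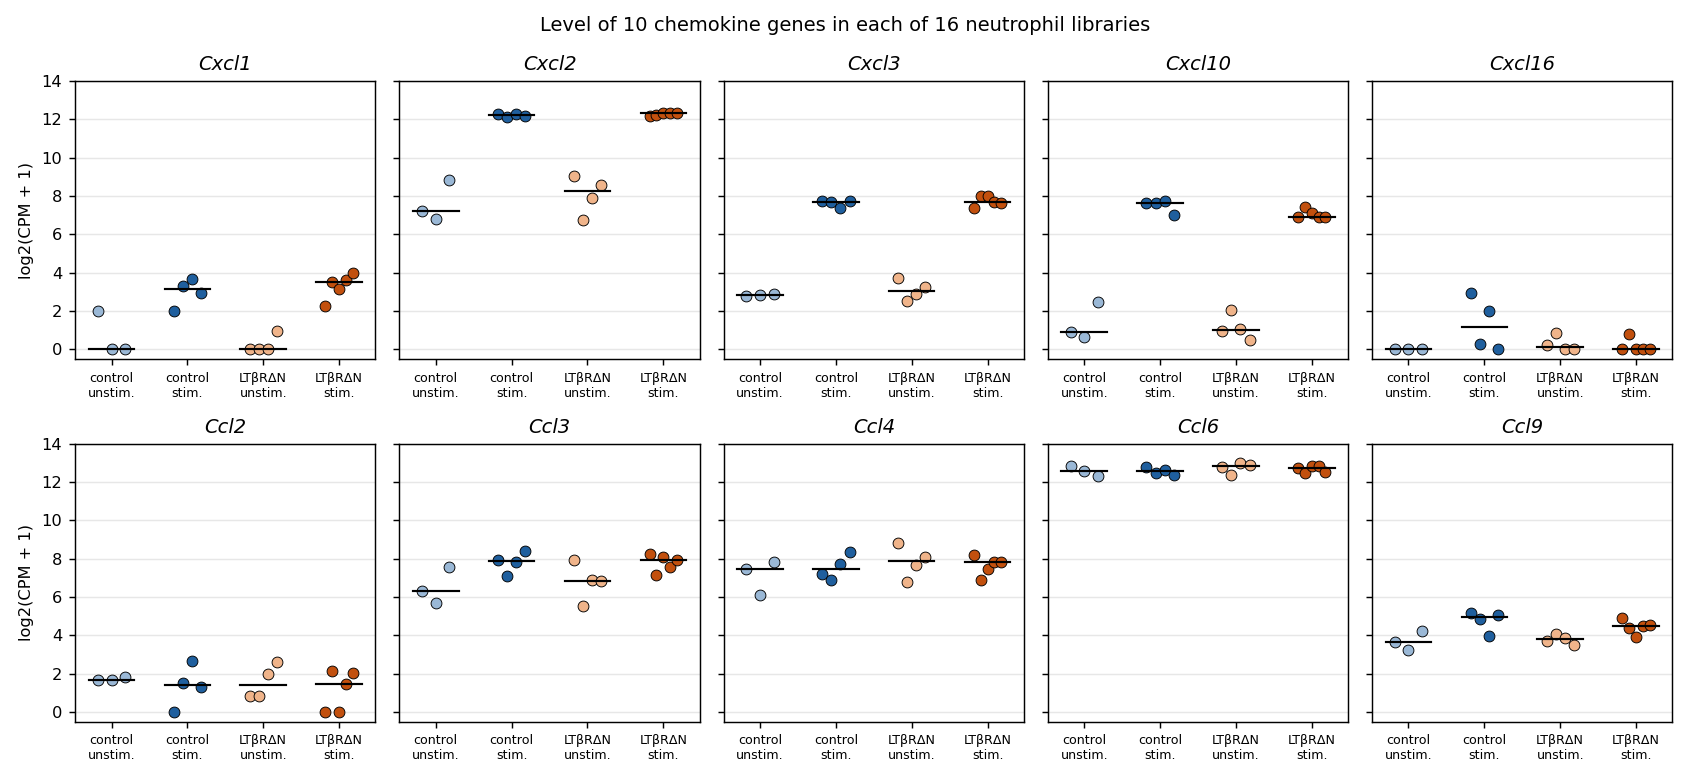
Level of each chemokine gene as log2(CPM + 1) in the 16 libraries, 1 dot per library, grouped by genotype and treatment label, with the group median as a bar. Cxcl2, Cxcl3 and Cxcl10 lie higher in all 9 stimulated than in all 7 unstimulated libraries, while Ccl6 stays between 5054 and 8166 CPM.

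The CXCR2 ligands were followed first. Cxcl2, which neutrophils themselves release to recruit further neutrophils, was at 146, 109 and 455 CPM in unstimulated control libraries 71, 72 and 73. In stimulated control libraries 80 to 83 it was at 4943, 4492, 4921 and 4645 CPM. The stimulated libraries lay close together and far above the unstimulated ones, in which library 73 was the highest.

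The log2 fold change of Cxcl2 in control neutrophils was 4.33 (SE 0.444, edgeR adjusted p = 2.65e-07), or 20.1-fold, and without library 73 it was 5.22. In LTβRΔN neutrophils Cxcl2 was at 537, 108, 241 and 382 CPM in libraries 67 to 70 and at 4575, 4825, 5204, 5176 and 5151 CPM in libraries 75 to 79, again without overlap. Its log2 fold change there was 3.96 (SE 0.379, edgeR adjusted p = 8.84e-08), or 15.5-fold. The unstimulated libraries differed widely among themselves, with a coefficient of variation of 80.3% in control and 58.2% in LTβRΔN neutrophils, against 4.61% and 5.54% with stimulation. Among 9213 tested genes ordered by mean CPM, Cxcl2 was at place 27 in stimulated neutrophils of both genotypes and at place 503 in unstimulated LTβRΔN neutrophils. With the index as a covariate, which library 73 alone separates from the treatment label, the log2 fold change in LTβRΔN neutrophils was 2.12 (edgeR adjusted p = 0.0805), so its call was lost.

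Cxcl3, a close relative with the same receptor, was at 5.86, 6.12 and 6.32 CPM in unstimulated and at 212, 204, 165 and 214 CPM in stimulated control libraries. In LTβRΔN libraries it was at 12.4, 4.80, 6.34 and 8.51 CPM without and at 167, 256, 259, 208 and 195 CPM with stimulation. In neither genotype did the groups overlap. Its log2 fold change was 5.03 in control (SE 0.256, edgeR adjusted p = 3.49e-12) and 4.66 in LTβRΔN neutrophils (SE 0.225, edgeR adjusted p = 1.52e-12). By p-value it was the fourth of 260 genes called higher in control and the third of 275 in LTβRΔN neutrophils.

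Cxcl1, also known as KC, was scarce throughout. In unstimulated control libraries it was at 2.97 CPM (39 counts) in library 71 and at 0 in libraries 72 and 73, and in stimulated libraries 80 to 83 at 2.97, 9.02, 11.7 and 6.62 CPM. In LTβRΔN neutrophils it was at 0 in 3 libraries and at 0.937 CPM (11 counts) in library 70 without stimulation. With stimulation it was at 3.74, 10.52, 7.75, 11.2 and 15.1 CPM in libraries 75 to 79. Every stimulated library was above every unstimulated one, although library 80 exceeded library 71 only beyond the digits shown. Scaled by library totals without TMM, library 80 was at 2.82 and library 71 at 3.27 CPM, so the control groups then overlapped.

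The log2 fold change of Cxcl1 in LTβRΔN neutrophils, 4.79 (SE 1.26, edgeR adjusted p = 0.0302), passed the test, and that in control neutrophils, 2.85 (SE 1.24, edgeR adjusted p = 0.348), did not. The call in LTβRΔN neutrophils lay near the threshold. It was lost without library 67 (4.38, edgeR adjusted p = 0.0986), 68 (4.65, 0.0853), 69 (4.44, 0.107), 78 (4.74, 0.0528) or 79 (4.60, 0.0690), and without library 70 the fitted value was 8.82. Without library 71 Cxcl1 passed in control neutrophils (8.44, edgeR adjusted p = 0.00803). Both of these fits compare with libraries that are all at 0, so their size is no bound. The fold changes of Cxcl1 in the genotypes were not shown to differ, with an interaction of 1.94 on the log2 scale (95% interval -1.35 to 5.22).

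Cxcl10, a chemokine best known as a target of interferons, had the largest fold change of the 9 tested genes in both genotypes. It was at 0.913, 0.567 and 4.63 CPM in unstimulated control libraries 71 to 73, and at 198, 199, 216 and 129 CPM in stimulated libraries 80 to 83. In LTβRΔN libraries it was at 0.928, 3.20, 1.13 and 0.426 CPM without and at 117, 171, 140, 119 and 120 CPM with stimulation. The lowest stimulated value of each genotype was far above the highest unstimulated one.

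The log2 fold change of Cxcl10 was 6.62 in control (SE 0.485, edgeR adjusted p = 1.11e-09) and 7.18 in LTβRΔN neutrophils (SE 0.488, edgeR adjusted p = 2.61e-10). Without library 73 that in control neutrophils was 7.88. The unstimulated counts were low, between 4 and 33 per library, and those with stimulation were between 188 and 2183. Cxcl16, a membrane-bound chemokine whose receptor is CXCR6, was at 0 in all unstimulated control libraries and at 6.76, 0.237, 2.97 and 0 CPM in stimulated libraries 80 to 83. The highest values were in libraries 80 and 82, which also held the most platelet transcripts (Pf4 at 11.4 and 86.9 CPM), and the part of platelets in these values was not tested. In LTβRΔN neutrophils Cxcl16 did not exceed 0.8004 CPM without or 0.743 CPM with stimulation, that is 6 counts. Exact two-sided permutation tests of log2(CPM + 1) gave p = 0.257 for stimulation in control neutrophils (smallest possible 0.0286) and p = 0.563 in LTβRΔN neutrophils (smallest possible 0.00794).

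The inflammatory CC chemokines were already present without stimulation. Ccl3, which attracts monocytes and lymphocytes, was at 79.5, 50.2 and 188 CPM in unstimulated control libraries 71 to 73 and at 246, 138, 228 and 336 CPM in stimulated libraries 80 to 83. In LTβRΔN libraries it was at 240, 45.6, 116 and 112 CPM without and at 304, 143, 275, 187 and 248 CPM with stimulation. The groups overlapped in both genotypes, through library 73 and library 67.

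The log2 fold change of Ccl3 was 1.17 in control (SE 0.420, edgeR adjusted p = 0.192) and 0.81 in LTβRΔN neutrophils (SE 0.369, edgeR adjusted p = 0.335), and neither passed. Without library 73 it was 1.87 in control neutrophils (edgeR adjusted p = 0.0185). With the second number of the column names as a replicate block, which no label backs, Ccl3 was called in both genotypes. It was then 1.30 in control (edgeR adjusted p = 0.000874) and 0.957 in LTβRΔN neutrophils (edgeR adjusted p = 0.00496). Ccl4, its neighbour on the chromosome and likewise an attractant of monocytes and lymphocytes, was at 178, 67.0 and 226 CPM in unstimulated control libraries. With stimulation it was at 149, 117, 214 and 331 CPM. In LTβRΔN libraries it was at 452, 110, 204 and 272 CPM without and at 297, 117, 179, 229 and 229 CPM with stimulation. The values of Ccl4 overlapped widely, and its log2 fold changes, 0.37 in control (95% interval -0.47 to 1.21, edgeR adjusted p = 0.889) and -0.33 in LTβRΔN neutrophils (95% interval -1.07 to 0.41, edgeR adjusted p = 0.825), did not pass.

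Ccl2, the main attractant of CCR2-bearing monocytes, was near the detection limit, with 0 to 61 counts per library. It did not exceed 5.19 CPM in unstimulated or 5.45 CPM in stimulated libraries, and was at 0 in stimulated libraries 75, 77 and 80. Its log2 fold changes were -0.04 in control (95% interval -2.79 to 2.70, edgeR adjusted p = 0.997) and -0.49 in LTβRΔN neutrophils (95% interval -2.95 to 1.96, edgeR adjusted p = 0.947). At this depth a change of several-fold in either direction was not detectable.

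Ccl6 and Ccl9 belong to a branch of CC chemokines that act through CCR1 and are made constitutively by myeloid cells. Ccl6 was at 7335, 6123 and 5054 CPM in unstimulated control libraries and at 7038, 5679, 6399 and 5350 CPM in stimulated ones. In LTβRΔN libraries it was at 6944, 5381, 8166 and 7564 CPM without and at 6725, 5754, 7454, 7395 and 5935 CPM with stimulation. The groups overlapped fully.

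Its log2 fold changes were -0.01 in control (95% interval -0.32 to 0.29, edgeR adjusted p = 0.993) and -0.08 in LTβRΔN neutrophils (95% interval -0.34 to 0.19, edgeR adjusted p = 0.914), the narrowest intervals among the 9 tested genes. Ccl9 was at 11.7, 8.61 and 18.0 CPM in unstimulated and at 35.5, 28.0, 14.5 and 32.5 CPM in stimulated control libraries, where libraries 73 and 82 crossed. In LTβRΔN libraries it was at 12.2, 16.01, 13.8 and 10.2 CPM without and at 29.3, 20.3, 14.1, 21.6 and 22.1 CPM with stimulation. The log2 fold changes of Ccl9, 1.11 in control (SE 0.383, edgeR adjusted p = 0.154) and 0.74 in LTβRΔN neutrophils (SE 0.345, edgeR adjusted p = 0.363), did not pass.

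By count, 3 of the 9 tested chemokines were called higher in control neutrophils, where 2.82% of all tested genes were, and 4 in LTβRΔN neutrophils, where 2.98% were. None was called lower, as were 0.662% and 0.749% of all genes. Every stimulated library was above every unstimulated one for 4 of the 9 in control neutrophils, beside 6.58% of all tested genes, and for 4 in LTβRΔN neutrophils, beside 4.61%, namely Cxcl1, Cxcl2, Cxcl3 and Cxcl10 each time. For Cxcl1 in control neutrophils this held on TMM-scaled CPM but not on library totals. The median log2 fold change of the 9 genes was 1.17 in control and 0.82 in LTβRΔN neutrophils, against -0.02 and -0.03 over all tested genes. In bulk RNA a change in the level per cell and a change in the number of cells that make a transcript cannot be told apart.

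**Figure D2:**
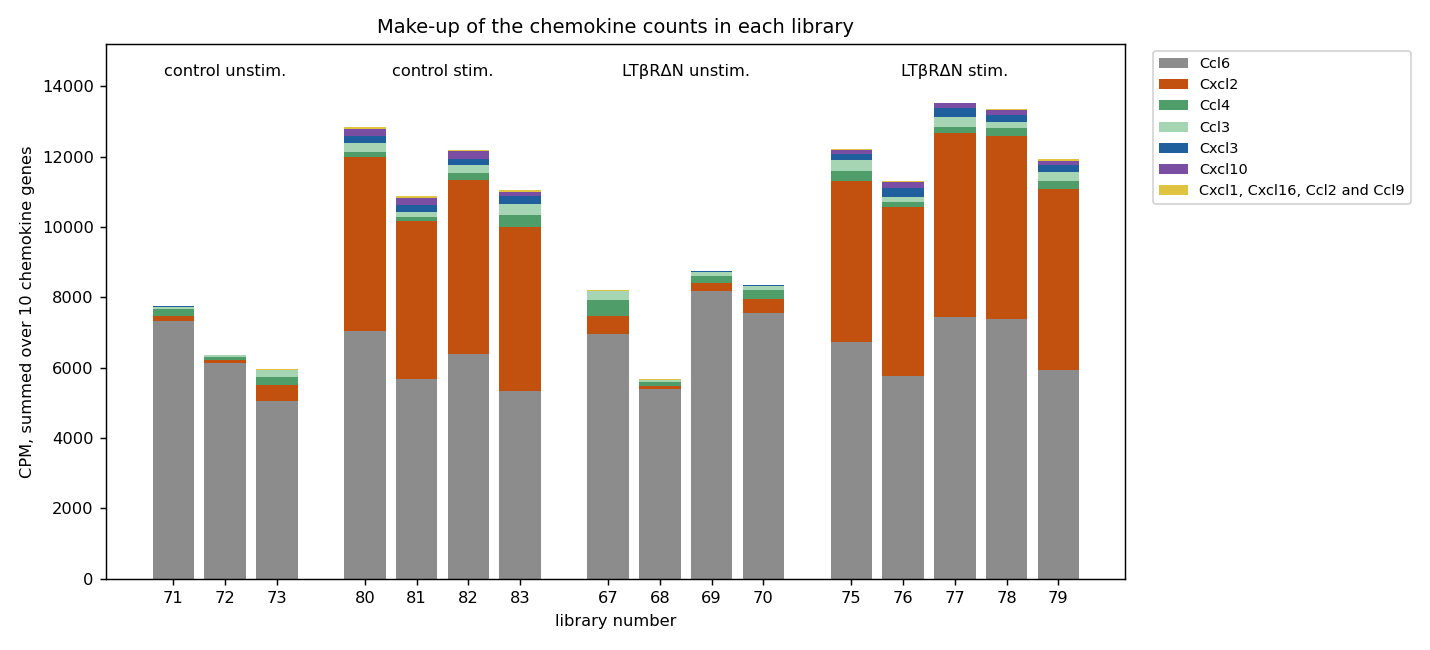
Summed CPM of the 10 chemokine genes in each library, stacked by gene, with libraries grouped by genotype and treatment label and CPM from 0 on the vertical axis. Ccl6 fills most of every unstimulated bar, and Cxcl2 is added to it in the stimulated libraries.

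Summed over the 10 genes, control neutrophils held 6694 CPM ± 946 (SD, n = 3) without and 11730 CPM ± 935 (SD, n = 4) with stimulation. LTβRΔN neutrophils held 7744 CPM ± 1402 (SD, n = 4) and 12460 CPM ± 953 (SD, n = 5). Cxcl2 made most of the difference. Ccl6 made up 91.9% ± 6.10 (SD, n = 3) of these counts in unstimulated control libraries and 52.0% ± 2.66 (SD, n = 4) in stimulated ones. The share of Cxcl2 was 3.74% ± 3.37 (SD, n = 3) and 40.6% ± 1.53 (SD, n = 4). In LTβRΔN neutrophils the share of Ccl6 was 90.9% ± 4.49 (SD, n = 4) and 53.3% ± 2.67 (SD, n = 5), and that of Cxcl2 3.95% ± 2.06 (SD, n = 4) and 40.1% ± 2.65 (SD, n = 5). These are shares of counts, which longer transcripts raise.

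**Figure D3:**
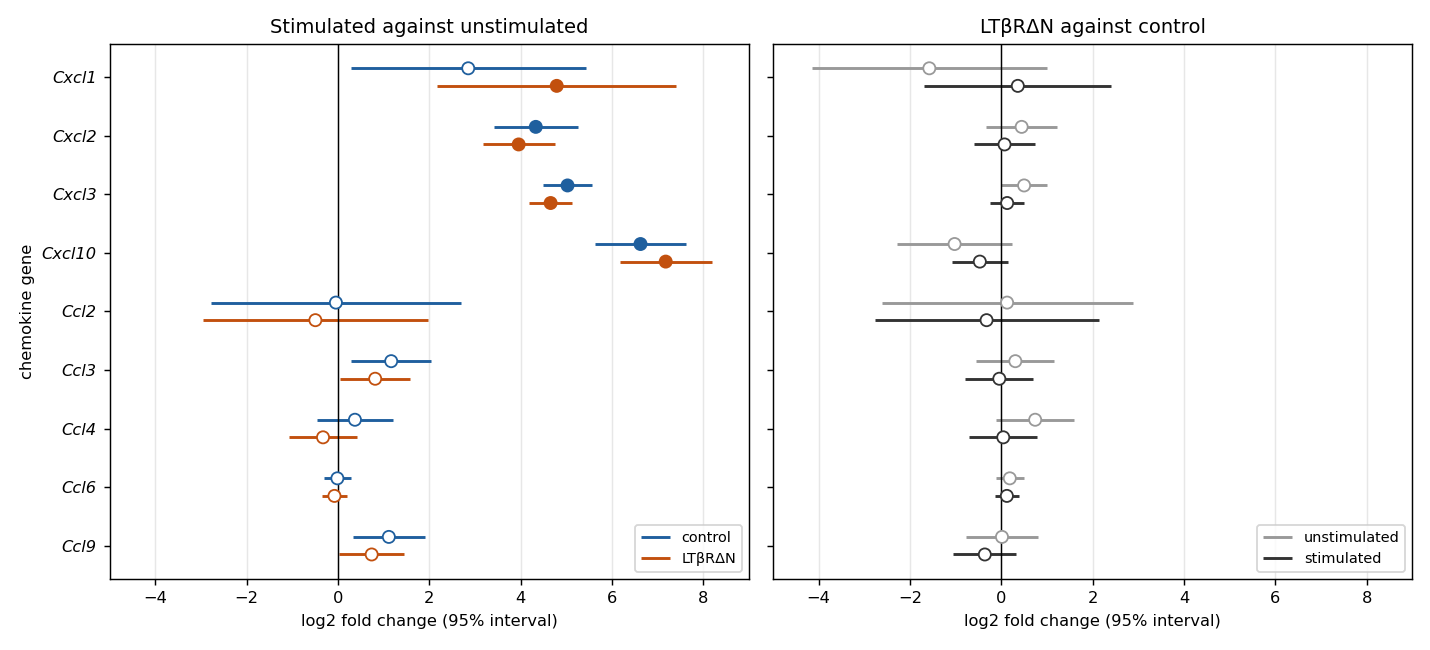
Log2 fold change (dots) with 95% interval (lines) of the 9 tested chemokines, on the left for stimulated against unstimulated libraries in each genotype and on the right for LTβRΔN against control libraries at each treatment label. Filled dots have an edgeR adjusted p under 0.05, which on the left are Cxcl2, Cxcl3 and Cxcl10 in both genotypes and Cxcl1 in LTβRΔN neutrophils, and on the right none.

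Whether LTβR on neutrophils alters chemokine transcripts was addressed by comparing the genotypes. In stimulated libraries 0 of the 9 chemokines were called, as were 0.0217% of all tested genes, that is 2 genes (Ltbr among them), by edgeR's quasi-likelihood test. At an unadjusted p under 0.05 there were 0 of the 9 and 591 genes in all, and by DESeq2 0 of the 9 and 14 genes. The value nearest to a difference was that of Cxcl10, at 185 CPM ± 38.8 (SD, n = 4) in control and 133 CPM ± 23.0 (SD, n = 5) in LTβRΔN libraries. Its log2 fold change was -0.47 (95% interval -1.09 to 0.15, edgeR adjusted p = 0.880), and libraries of the genotypes overlapped. For Cxcl2 the log2 difference was 0.07 (95% interval -0.60 to 0.74), for Cxcl3 0.13 (-0.24 to 0.49) and for Ccl6 0.12 (-0.15 to 0.39). The intervals of Cxcl1 (-1.69 to 2.41) and Ccl2 (-2.78 to 2.13) were the widest.

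In unstimulated libraries 0 of the 9 chemokines were called between the genotypes either, beside 0.0217% of all tested genes. At an unadjusted p under 0.05 there were 0 of the 9 and 258 genes in all, and DESeq2 called 0 of the 9 and 4 genes in all. Ccl4 was at 260 CPM ± 144 (SD, n = 4) in LTβRΔN and 157 CPM ± 81.7 (SD, n = 3) in control libraries, a log2 fold change of 0.74 (95% interval -0.11 to 1.59). Cxcl3 was at 8.01 CPM ± 3.29 (SD, n = 4) and 6.10 CPM ± 0.231 (SD, n = 3), with a log2 fold change of 0.50 (SE 0.242). Lower values in LTβRΔN libraries were those of Cxcl1, with a log2 fold change of -1.58 (SE 1.24), and Cxcl10, with -1.02 (95% interval -2.29 to 0.24). For Cxcl16 the exact two-sided permutation test between genotypes gave p = 0.127 with and p = 0.429 without stimulation, and without library 83 the former was 0.0357.

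The response to stimulation was then compared between the genotypes by an interaction term. It was called for 0 of the 9 chemokines, beside 0% of all tested genes, by edgeR's quasi-likelihood test and by DESeq2. The interaction of Cxcl2 was -0.37 on the log2 scale (95% interval -1.40 to 0.65), that of Cxcl3 -0.37 (-0.99 to 0.25) and that of Cxcl10 0.55 (-0.84 to 1.95), where a positive value means a larger rise in LTβRΔN neutrophils. That of Ccl6 was the most narrowly bounded, at -0.06 (-0.47 to 0.34).

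**Figure D4:**
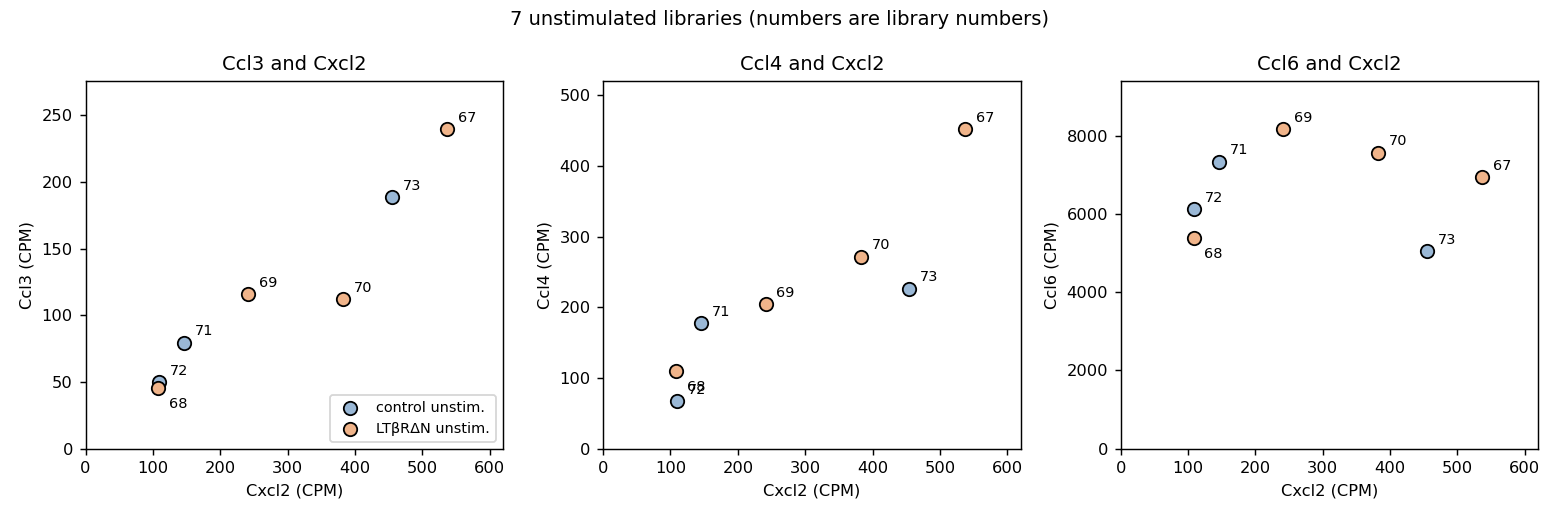
CPM of Ccl3, Ccl4 and Ccl6 against CPM of Cxcl2 in the 7 unstimulated libraries, coloured by genotype and marked with the library number. Ccl3 and Ccl4 are highest in library 67 and lowest in libraries 68 and 72, as is Cxcl2, while Ccl6 follows no such order.

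After the values had been seen, 15 pairs among 6 of the chemokines were compared within the unstimulated libraries. Their p-values therefore describe these pairs and are no independent test. By Pearson's r the pairs among Cxcl2, Ccl3 and Ccl4 had an adjusted p under 0.05, and pairs with Cxcl3, Ccl6 or Ccl9 did not. Over 7 libraries, log2(CPM + 1) of Cxcl2 and Ccl3 had a Pearson r of 0.959 (exact permutation p = 0.000794, adjusted over 15 pairs 0.00893) and a Spearman rho of 0.964 (exact permutation p = 0.00278, adjusted 0.0417). Without the 2 libraries farthest from the median of Cxcl2, r was 0.930, and within the 6 libraries with index S520 it was 0.950. Cxcl2 and Ccl4 had an r of 0.895 (exact permutation p = 0.00119, adjusted 0.00893), a rho of 0.929 (exact permutation p = 0.00675, adjusted 0.0506), an r of 0.832 without the 2 farthest libraries and of 0.933 within S520. Ccl3 and Ccl4 had an r of 0.897 (exact permutation p = 0.00714, adjusted 0.0357), a rho of 0.857 (exact permutation p = 0.0238, adjusted 0.0714), an r of 0.786 without the 2 farthest and of 0.939 within S520. Cxcl3 leaned the same way without passing. With Cxcl2 it had an r of 0.771 (exact permutation p = 0.0167, adjusted 0.0626) and a rho of 0.857 (exact permutation p = 0.0238, adjusted 0.0714). That r was 0.574 without the 2 farthest libraries and 0.921 within S520. Its r was 0.749 with Ccl3 and 0.779 with Ccl4.

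Cxcl2 and Ccl6 had an r of 0.139 (exact permutation p = 0.746, adjusted 0.746) and a rho of 0.107 (exact permutation p = 0.840, adjusted 0.840), which was -0.204 as r without the 2 farthest libraries and 0.594 within S520. With each genotype centred on its own mean, r was 0.964 for Cxcl2 and Ccl3, 0.898 for Cxcl2 and Ccl4 and 0.931 for Ccl3 and Ccl4. How closely pairs of other tested genes varied over these libraries was not tested. Totals of the 7 libraries ranged from 1094335 to 11932653 counts, with the smallest in library 68, which was also low in Cxcl2, Ccl3 and Ccl4, and the part of depth was not tested.

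Tested genes whose profile over the 16 libraries lay nearest to a chemokine were looked up by the root mean square difference of log2 CPM, each centred on its mean. For Cxcl2 they were Ier3 (0.371) and Socs3 (0.386), for Cxcl3 Nfkbia (0.276) and Ier3 (0.426), and for Cxcl10 Ffar2 (0.745) and Serpinb2 (0.769), all of which differ between the treatment labels as these chemokines do. For Ccl3 they were Nfkbid (0.339) and 4930519G04Rik (0.411), for Ccl4 Dusp1 (0.384) and Esrra (0.412), for Ccl6 Gpx1 (0.111) and Trem3 (0.125), and for Ccl9 4930511M06Rik (0.289) and Dmxl2 (0.304). Those of the sparse Cxcl1 were Tbc1d4 (0.926) and Bcl2a1b (0.958), and those of Ccl2 Gtf2h2 (0.574) and Ero1l (0.889). By the same measure, a chemokine's own spread about its mean was 0.203 for Ccl6, 0.584 for Ccl9, 0.666 for Ccl4 and 0.854 for Ccl3. It was 2.25 for Cxcl2, 2.42 for Cxcl3 and 3.33 for Cxcl10. The small distances of Ccl6 thus go with a nearly flat profile.

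**Figure D5:**
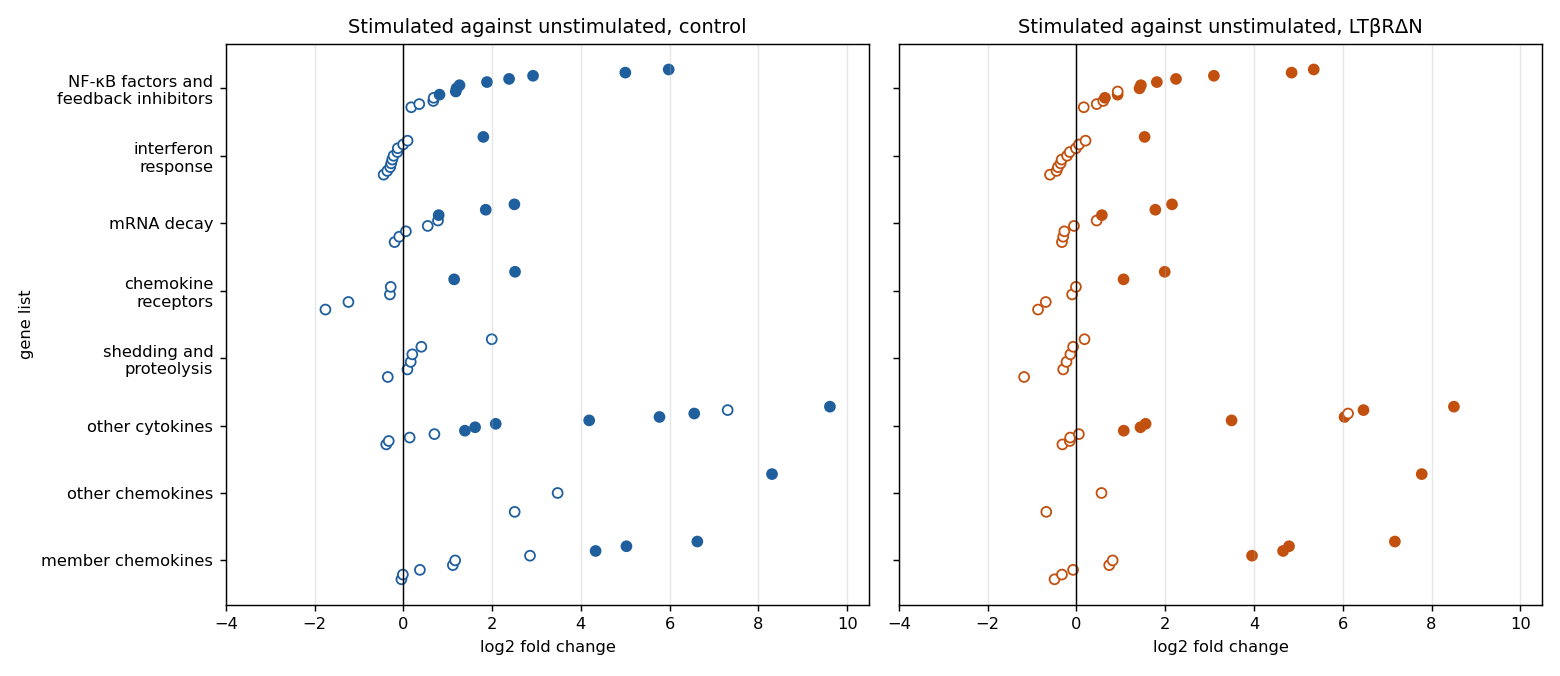
Log2 fold change between stimulated and unstimulated libraries of the tested genes in 7 lists around the chemokines and of the 9 chemokines themselves, 1 dot per gene, for control (left) and LTβRΔN neutrophils (right). Filled dots have an edgeR adjusted p under 0.05, and all of them lie above 0. The fitted values of Cxcl11 and Csf3, at 0 in all unstimulated libraries, are no bound.

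Genes upstream and downstream of the chemokines were counted from lists, which were chosen with earlier results of these data known. Beside each count below, 2.82% of all tested genes were called higher in control and 2.98% in LTβRΔN neutrophils. Called lower were 0.662% and 0.749%. Of 13 tested NF-κB factors and feedback inhibitors, 9 were called higher and 0 lower in each genotype, with a median log2 fold change of 1.197 in control and 1.42 in LTβRΔN neutrophils. Tnfaip3, the A20 enzyme that ends TNF receptor signalling, rose from 56.0 CPM ± 20.6 (SD, n = 3) to 3513 CPM ± 230 (SD, n = 4) in control neutrophils. Nfkbia, the inhibitor IκBα, rose from 548 CPM ± 203 (SD, n = 3) to 17530 CPM ± 899 (SD, n = 4). Nfkbiz, a nuclear partner of NF-κB, rose by 2.38 on the log2 scale in control (SE 0.224, edgeR adjusted p = 7.39e-08) and by 2.24 in LTβRΔN neutrophils (SE 0.195, edgeR adjusted p = 1.88e-08).

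Of 11 tested genes of the interferon response, 1 was called higher and 0 lower in each genotype. It was Irf1, a transcription factor of the interferon and TNF responses, at 472 CPM ± 14.7 (SD, n = 3) without and 1645 CPM ± 33.2 (SD, n = 4) with stimulation in control neutrophils. Irf1 had a log2 fold change of 1.80 in control (SE 0.123, edgeR adjusted p = 3.59e-10) and 1.54 in LTβRΔN neutrophils (SE 0.107, edgeR adjusted p = 3.80e-10). The other 10, among them the interferon-induced Ifit and Isg15 transcripts, were not called in either genotype. The median of the list was -0.22 in control and -0.21 in LTβRΔN neutrophils.

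Among 8 tested genes for decay of chemokine messages, 3 were called higher and 0 lower in each genotype. Zfp36, which encodes tristetraprolin, was at 2628 CPM ± 1741 (SD, n = 3) without and 14870 CPM ± 1080 (SD, n = 4) with stimulation in control neutrophils. This was a log2 fold change of 2.50 (SE 0.354, edgeR adjusted p = 3.40e-05). Zc3h12a, the endonuclease Regnase-1, rose by 1.85 and 1.78 on the log2 scale and Zfp36l1, a relative of Zfp36, by 0.79 and 0.57, in control and LTβRΔN neutrophils. The 6 tested proteases of the list on shedding and trimming of chemokines included 0 called genes in either direction. At an unadjusted p under 0.05 by edgeR there were 2 in control and 0 in LTβRΔN neutrophils, beside 1049 and 1199 of all tested genes.

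Receptors for the chemokines are what lets a neutrophil answer to its own products. Of 6 tested genes on the receptor list, 2 were called higher and 0 lower in each genotype. They were Ccr1 and Ccrl2, and only the former is a signalling receptor of these chemokines. Ccr1, the receptor of CCL3, CCL6 and CCL9, rose from 1557 CPM ± 261 (SD, n = 3) to 3439 CPM ± 252 (SD, n = 4) in control neutrophils, a log2 fold change of 1.14 (SE 0.124, edgeR adjusted p = 6.44e-07), and by 1.06 in LTβRΔN neutrophils (SE 0.109, edgeR adjusted p = 2.47e-07). Ccrl2, an atypical receptor that does not signal, rose by 2.52 in control (SE 0.237, edgeR adjusted p = 7.49e-08) and by 1.99 in LTβRΔN neutrophils (SE 0.203, edgeR adjusted p = 2.26e-07). Cxcr2, the receptor of CXCL1, CXCL2 and CXCL3, named here after its values were seen, was at 1519 to 1596 CPM in unstimulated and 1129 to 1514 CPM in stimulated control libraries. Its log2 fold change of -0.29 did not pass (SE 0.113, edgeR adjusted p = 0.264).

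Of 12 tested cytokine genes outside the chemokine family, 7 were called higher and 0 lower in each genotype. Il23a, a subunit of IL-23, was at 0.532 to 3.23 CPM in unstimulated and 811 to 1355 CPM in stimulated control libraries, a log2 fold change of 9.61 (SE 0.526, edgeR adjusted p = 8.84e-12). Il1a, which encodes IL-1α, rose by 6.55 and 6.47 and Hbegf, an EGF receptor ligand, by 5.77 and 6.04, in control and LTβRΔN neutrophils.

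Of 27 other chemokine genes in the table, 3 passed the filter, and 1 was called. Cxcl11, which shares the receptor CXCR3 with CXCL10, had 0 counts in all 7 unstimulated libraries. It was at 3.11, 14, 3.87 and 4.74 CPM in stimulated control libraries 80 to 83 and at 2.49, 12.8, 1.41, 0.898 and 3.87 CPM in stimulated LTβRΔN libraries 75 to 79. Against a floor of 3 counts over the unstimulated group, the stimulated group mean was at least 62.4-fold higher in control and 34.1-fold in LTβRΔN neutrophils. This floor covers counting error only. In LTβRΔN neutrophils library 76 held 103 of the 121 counts of the group, and libraries 75, 77 and 78 held 4, 2 and 2. With 0 counts in every unstimulated library, Cxcl11 passed the filter through its stimulated libraries only. Its calls (edgeR adjusted p = 0.00597 in control and 0.00629 in LTβRΔN neutrophils) are therefore no independent support. The other 2 were the platelet chemokines Pf4 and Ppbp, named after their values were seen, which were highest in library 82 (86.9 and 28.2 CPM) and were not called (edgeR adjusted p = 0.166 and 0.505 in control neutrophils).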

How the data were processed

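The authors deposited 1 table of whole-number read counts per gene symbol for 16 bulk RNA-Seq libraries of blood neutrophils, without normalization. The submitters' processing notes name Bowtie 1.0.0, TopHat 1.4.1, HTSeq 0.7.1 and build mm10. The annotation, strand setting and statistical test are not given in the sources used here. Reads were single-end after cDNA amplification, and PCR copies could not be removed from counts.

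The quasi-likelihood model of edgeR 4.0.16 was run in R 4.3.3 (TMM, 1 coefficient per group, tested over all 16 libraries). filterByExpr (minimum count 10, minimum total 15) kept 9213 of 23337 symbols, and Benjamini-Hochberg adjusted p-values under 0.05 over these counted as called. Fold changes are on edgeR's scale. Cxcl16, below the filter, was compared by exact permutation of log2(CPM + 1). Libraries of 1 group differed by more than sampling noise (chi-square 6.82 to 47.8 per degree of freedom over 25 pairs). The fit was tested on simulated counts first. Lengths, from GENCODE M21, are unions of exons of coding transcripts.

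The 10 chemokines and all lists were chosen with earlier results of these data known. Named besides the 10 chemokines are Ltbr, up to 3 called genes per list and direction with the smallest p, and the 2 genes of nearest profile. Alternatives were DESeq2's size factors, library totals only, both filters on low counts, DESeq2 1.42.0, the compared groups only, the index as a covariate, a replicate block from the second number of each column name, and each library left out in turn. Added after seeing the data were fits without libraries 68, 75 and 77, the 3 smallest, and without libraries 80 and 82, and alternatives for Cxcl16. The counts limit precision for Cxcl1, Cxcl16 and Ccl2, which had 0 in some libraries. Some genes of the lists are not reported here by name.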

Additional observations from a re-analysis of the deposited data

Results flagged for a closer look

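Dixon's test at 95% picked out 2 of the 30 sets of 4 or 5 libraries examined for the 10 chemokines, where chance alone would pick about 1.5. Cxcl1 was at 0.937 CPM (11 counts) in unstimulated LTβRΔN library 70 and at 0 in the other 3 libraries of that group. Cxcl16 was at 0.743 CPM (6 counts) in stimulated LTβRΔN library 76 and at 0 in the other 4 libraries of that group. Both stand out against libraries without any count of the gene.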

How the results depend on the processing

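Cxcl2, Cxcl3 and Cxcl10 were called higher in stimulated control neutrophils under every alternative in which they were tested, and Cxcl3 and Cxcl10 likewise in LTβRΔN neutrophils, where Cxcl2 lost its call with the index as a covariate. That covariate gave 157 called genes in control and 79 in LTβRΔN neutrophils, 2 of the chemokines in the latter (Cxcl1 at 11, edgeR adjusted p = 0.218), and 1 interaction. It turned the log2 fold change of stimulation of Ccl4 to -0.157 and of Ccl6 to 0.275 in control, of Ccl3 to -0.721, Ccl6 to 0.336 and Ccl9 to -0.0814 in LTβRΔN neutrophils, the unstimulated genotype difference of Cxcl10 to 0.242, and the interactions of Cxcl10 to -0.713 and Ccl6 to 0.0609. A minimum of 10 counts in every library left 5 chemokines and 1 called in each genotype (Cxcl2), since fewer genes were tested, and 1 gene at each genotype comparison. DESeq2 called 14 genes between genotypes with and 4 without stimulation, and so did keeping every gene with a count (4). Ccl6 in control neutrophils was at 0.00032 with DESeq2's size factors and 0.000314 with DESeq2. Library totals as the only scaling moved the median log2 fold change of all genes to -0.272 in control and -0.208 in LTβRΔN neutrophils, with 201 genes higher and 272 lower against 260 and 61, and 216 and 293 against 275 and 69, while the calls among chemokines kept to the same genes, and turned Ccl9 between unstimulated genotypes to -0.0268 and the interaction of Ccl6 to 0.004. Without the 3 smallest libraries Cxcl1 lost its call (4.99, edgeR adjusted p = 0.121), and genotype differences turned for Ccl2 (0.335) and Ccl4 (-0.0914) with and Ccl9 (-0.0819) without stimulation. Without libraries 80 and 82 they turned for Ccl2 (0.0767) and Ccl4 (-0.104) with stimulation and for the interaction of Ccl6 (0.0863). The cause was not tested for any of these.

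A second number in the column names is shared by 7 pairs of libraries across treatment labels. Deviations from group means correlated within these pairs by 0.0188 to 0.148, not above 0.1 in every pair, so it was not taken as pairing. With it as a replicate block, which allows no genotype comparison, 324 genes in control and 343 in LTβRΔN neutrophils were called. Ccl3 was called in both (1.30, edgeR adjusted p = 0.000874, and 0.957, edgeR adjusted p = 0.00496), Cxcl1 in LTβRΔN neutrophils was not (5.43, edgeR adjusted p = 0.0577), and the interactions of Ccl2 (0.152) and Ccl6 (0.000237) turned. In 6 of 7 pairs a library correlated best with its own number, a hint from the data and not from the design.

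With each library left out in turn, log2 fold changes of stimulation in control neutrophils ranged from -1.02 to 0.369 for Ccl2, from -0.00117 to 0.725 for Ccl4 and from -0.141 to 0.127 for Ccl6, and in LTβRΔN neutrophils from -0.941 to 0.19 for Ccl2, from -0.57 to 0.0764 for Ccl4 and from -0.187 to 0.00411 for Ccl6. Genotype differences with stimulation ranged from -0.77 to 0.651 for Ccl2, from -0.23 to 0.171 for Ccl3 and from -0.145 to 0.382 for Ccl4, and without from -5.61 to 4.01 for Cxcl1, from -1.46 to 0.237 for Cxcl10, from -0.565 to 0.429 for Ccl2, from -0.173 to 1.01 for Ccl3 and from -0.206 to 0.335 for Ccl9. Interactions ranged from -3.65 to 5.97 for Cxcl1, from -0.709 to 0.988 for Cxcl10, from -0.897 to 0.526 for Ccl2, from -1.05 to 0.131 for Ccl3 and from -0.205 to 0.063 for Ccl6. The called genes ranged from 2 to 6 between unstimulated genotypes and from 0 to 2 for the interaction, with 6 and 2 without library 71. The difference of log2(CPM + 1) of Cxcl16 ranged from -0.264 to 0.0911 for stimulation in LTβRΔN neutrophils, and was -1.59 between stimulated genotypes without library 83 (exact permutation p = 0.0357). Over all these alternatives, 833 values of single chemokines kept their direction and side of the threshold or moved by less than the replicate SD, 56 turned, and the changed calls were those of Cxcl1, Cxcl2 and Ccl3 given here and in the report and that of Cxcl16 without library 83.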
